A study of Mus musculus with 6 samples.

Results

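The 9 genes described here mark excitatory neurons of the cerebral cortex: the vesicular glutamate transporter gene Slc17a7 and the transcription factor genes Neurod2, Neurod6, Tbr1, Emx1, Cux1, Cux2, Rorb and Foxp2. They were chosen by symbol, and each symbol matched 1 of the 33182 genes in the deposited table. RNA came from the motor cortex of mice that carry the SOD1G93A transgene, a mutant human SOD1 that makes the line a model of amyotrophic lateral sclerosis. All 6 libraries carry the transgene and were sampled at day 120, 3 after ultrasound treatment (low-intensity pulsed ultrasound, per the series) and 3 from controls without it. The labels give neither the promoter of the transgene nor the strain, and do not speak of pooled animals. Samples of mice without the transgene were not analysed here. Per the labels' protocols, RNA with poly(A) tails was made into dUTP-marked libraries and read as pairs on an Illumina instrument. The labels number the libraries but do not say that they came from separate animals, so the spread behind each p-value may be technical.

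Excitatory neurons of the neocortex arise from progenitors that express Emx1 and settle in layers, deep layers before upper layers. Basic helix-loop-helix factors of the NeuroD family act in their differentiation, and layer-enriched factors such as CUX1 and CUX2 (upper layers), RORB (layer 4), and TBR1 and FOXP2 (layer 6) take part in setting the identity of each layer. The mature cells load glutamate into synaptic vesicles with VGLUT1, the product of Slc17a7. In a bulk sample, fewer cells of a type and less RNA per cell cannot be told apart.

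Total counts ranged from 42726633 to 45885619 in ultrasound libraries and from 38202541 to 60088636 in controls. The 18S ribosomal RNA gene Rn18s took 0.655%, 9.18% and 1.13% of counts in ultrasound libraries 1 to 3 and 1.67%, 0.561% and 4.68% in controls 1 to 3. Control 3 stood apart in olfactory bulb markers (Omp, Doc2g, Cdhr1, Eomes and Tbx21), whose summed level was 1.37, 2.98 and 2.49 FPKM in ultrasound libraries 1 to 3 and 3.13, 1.82 and 62.0 FPKM in controls 1 to 3. FPKM scales fragments by transcript length and by the library's mapped fragments. Striatal markers summed to 342, 338 and 547 FPKM in ultrasound libraries and to 276, 135 and 573 FPKM in controls, lowest in control 2. Member fold changes that rest on control 2 or control 3 are therefore also given without that library.

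No member passed the test between ultrasound and control libraries. With edgeR's quasi-likelihood test on the counts, 0 of 9 members had a Benjamini-Hochberg adjusted p under 0.05, where 0.00635% of the 15740 genes tested did, and DESeq2 also passed 0 of 9, where it passed 0.184% of the genes. At an unadjusted p under 0.05, edgeR counted 0 of 9 (4.77% of all genes tested) and DESeq2 1 of 9, Slc17a7 (5.66% of all). With no filter on low levels, edgeR counted 2 of 9 at this unadjusted p, Slc17a7 and Cux2 (3.66% of 30480 genes). All 9 members had passed the minimum mean level of 0.5 FPKM, and each was detected in every library, with at least 384 counts. Fold changes were positive for 4 members (Slc17a7, Neurod6, Tbr1 and Foxp2) and negative for 5 (Neurod2, Cux1, Cux2, Rorb and Emx1). Their median log2 fold change, ultrasound minus control, was -0.01, beside -0.01 over all genes tested. The 95% interval of the log2 fold change included 0 for each of the 9.

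**Figure D1:**
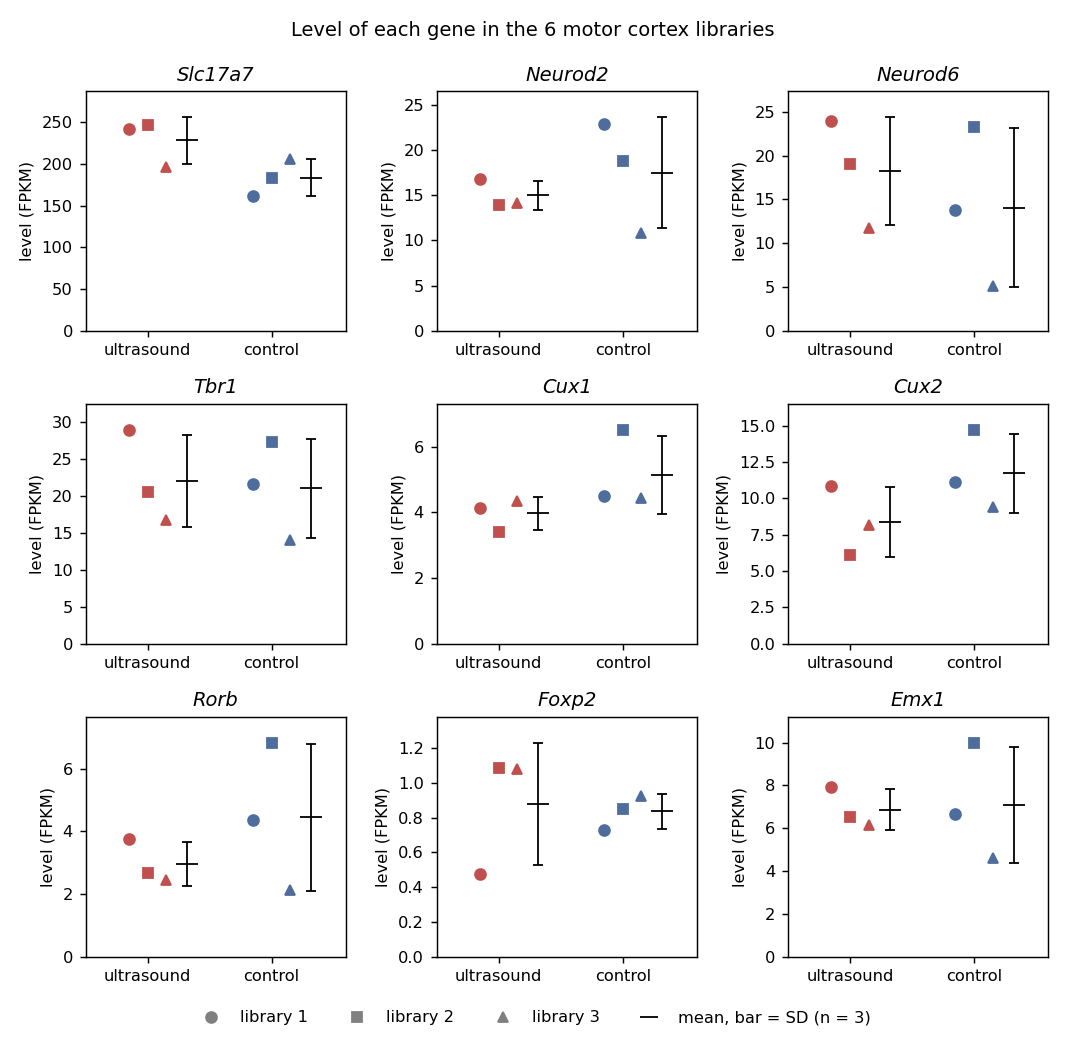
Level of each of the 9 genes in FPKM (y axes start at 0) in the 3 ultrasound libraries (red, left) and 3 control libraries (blue, right) of SOD1G93A motor cortex, with symbols for library number and a bar for the mean and SD (n = 3). Slc17a7 lies higher in ultrasound libraries 1 and 2 than in every control, Cux1 has groups that do not overlap, and control 3 is the lowest library for Neurod2, Neurod6, Tbr1, Rorb and Emx1.

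Slc17a7 (ENSMUSG00000070570) was by far the most abundant member. The table lists it on the plus strand of chromosome 7 from 44813373 to 44825566. VGLUT1 is the main vesicular glutamate transporter of cortical excitatory neurons. Slc17a7 was at 242, 247 and 196 FPKM in ultrasound libraries 1 to 3 and at 161, 183 and 206 FPKM in controls 1 to 3. Ultrasound libraries 1 and 2 lay above every control, while ultrasound 3 lay between controls 2 and 3, so the groups overlapped. The mean was 228 ± 28.0 FPKM in ultrasound libraries and 183 ± 22.4 FPKM in controls (SD, n = 3 each). The log2 fold change was 0.36 (SE 0.16, 95% interval -0.01 to 0.72), with an adjusted p of 0.973 from edgeR. It was the smallest unadjusted p of the 9 members, 0.0543, which ranked 818 among all genes tested.

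The transporter's paralogues were scarce by comparison. Slc17a6, which encodes VGLUT2 of thalamic and other subcortical neurons, was at 3.98, 3.16 and 5.02 FPKM in ultrasound libraries and 3.87, 4.72 and 3.47 FPKM in controls. Slc17a8, which encodes VGLUT3, stayed at or below 1.03 FPKM. Slc17a7 thus made up 98.0%, 98.7% and 97.2% of the summed FPKM of the 3 transporter genes in ultrasound libraries 1 to 3, and 97.3%, 97.2% and 98.0% in controls 1 to 3. These shares overlapped between groups, and an exact two-sided permutation test gave p = 0.6, where 3 libraries against 3 cannot fall below 0.1.

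Of the NeuroD genes, Neurod6 varied most between libraries. NEUROD2 and NEUROD6 (also NEX) are related basic helix-loop-helix activators of postmitotic excitatory neurons, which bind E-boxes. Neurod6 (ENSMUSG00000037984; chromosome 6, 55654807 to 55658248, minus strand) was at 24.0, 19.0 and 11.7 FPKM in ultrasound libraries 1 to 3 and at 13.8, 23.2 and 5.06 FPKM in controls 1 to 3. Control 3, with 466 counts, lay below all other libraries, and control 2 lay beside the highest ultrasound library. Its highest level was 4.73 times its lowest, the widest ratio of the 9 members, and its SD within groups on the log2 scale (0.85, TMM-scaled CPM) was above that of 95.7% of the genes tested. In edgeR its log2 fold change was 0.42 (SE 0.54, 95% interval -0.89 to 1.74), with an edgeR adjusted p of 0.981. It came to 0.03 without control 3 and 0.98 without control 2, neither past the threshold.

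Neurod2 (ENSMUSG00000038255; chromosome 11, 98216241 to 98220474, minus strand) was at 16.8, 14.0 and 14.1 FPKM in ultrasound libraries and at 22.9, 18.8 and 10.8 FPKM in controls. The 3 ultrasound libraries lay between control 2 and control 3, close to each other. Its log2 fold change was -0.19 (SE 0.25, 95% interval -0.78 to 0.40; edgeR adjusted p = 0.981). It turned to 0.07 without control 1 and was -0.44 without control 3, where the 2 controls left both lay above the ultrasound libraries. The ratio of Neurod6 to Neurod2 FPKM was 1.42, 1.36 and 0.828 in ultrasound libraries and 0.604, 1.24 and 0.470 in controls, with an exact two-sided permutation p of 0.2.

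Emx1 and Tbr1, which act at successive steps of the cortical excitatory lineage, had nearly the same profile over the libraries. EMX1 is a homeodomain factor of cortical progenitors that stays on in their excitatory progeny, and TBR1 is a T-box factor of early postmitotic and layer 6 neurons, also made by projection neurons of the olfactory bulb. Tbr1 (ENSMUSG00000035033; chromosome 2, 61633274 to 61644458, plus strand) was at 28.9, 20.5 and 16.7 FPKM in ultrasound libraries and at 21.6, 27.4 and 14.1 FPKM in controls. Emx1 (ENSMUSG00000033726; chromosome 6, 85164420 to 85181444, plus strand) was at 7.94, 6.50 and 6.13 FPKM in ultrasound libraries and at 6.65, 9.99 and 4.59 FPKM in controls. For both genes control 3 was the lowest library and the ultrasound values lay inside the range of the controls, except Tbr1 in ultrasound 1, the highest of all.

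In edgeR the fold change on the log2 scale was 0.11 for Tbr1 (SE 0.27, 95% interval -0.53 to 0.74; edgeR adjusted p = 0.995) and -0.01 for Emx1 (SE 0.28, 95% interval -0.64 to 0.63; edgeR adjusted p = 0.9997). Without control 3 the values were -0.11 for Tbr1 and -0.23 for Emx1, and without control 2 they were 0.33 and 0.31 in the same order. Over the 6 libraries, the centred log2 levels of Tbr1 and Emx1 differed by a root mean square of 0.14, the smallest among the 36 pairs of members, followed by 0.20 for Cux1 and Cux2. Control 3, where Tbr1 was lowest, was also the library with the olfactory bulb markers, and their part in the Tbr1 level was not tested.

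Cux1 and Cux2, the upper layer homeodomain genes, both had lower means in ultrasound libraries. CUX1 and CUX2 are related factors of layer 2 to 4 neurons with roles in dendrite and spine growth; Cux1 is also expressed widely outside neurons. Cux2 (ENSMUSG00000042589; chromosome 5, 121994429 to 122188165, minus strand) was at 10.9, 6.11 and 8.16 FPKM in ultrasound libraries and at 11.1, 14.7 and 9.38 FPKM in controls. Ultrasound libraries 2 and 3 lay below every control, and ultrasound 1 lay between controls 3 and 1. The mean was 8.38 ± 2.39 FPKM in ultrasound libraries and 11.7 ± 2.72 FPKM in controls (SD, n = 3 each). For Cux2 the log2 fold change was -0.46 (SE 0.22, 95% interval -0.96 to 0.05; edgeR adjusted p = 0.973). It was -0.27 without control 2, the highest library, and -0.30 without ultrasound 2, the lowest.

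Cux1 (ENSMUSG00000029705; chromosome 5, 136276989 to 136596344, minus strand) was at 4.15, 3.41 and 4.35 FPKM in ultrasound libraries and at 4.49, 6.52 and 4.44 FPKM in controls. Its groups did not overlap, by a narrow margin between ultrasound 3 and control 3, and it was the only one of the 9 for which this held, where 10.8% of all genes tested had FPKM ranges that did not overlap. The mean was 3.97 ± 0.497 FPKM in ultrasound libraries and 5.15 ± 1.18 FPKM in controls (SD, n = 3 each). The log2 fold change was -0.34 (SE 0.17, 95% interval -0.73 to 0.05; edgeR adjusted p = 0.973), and -0.15 without control 2, the highest library. The table lists 14 transcripts of Cux1 under 1 gene, so products of its different start sites are summed. The ratio of Cux2 to Cux1 FPKM was 2.62, 1.79 and 1.88 in ultrasound libraries and 2.47, 2.26 and 2.11 in controls (exact two-sided permutation p = 0.5).

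Rorb, which encodes a nuclear receptor of layer 4 neurons, had the most negative fold change of the 9 members. Rorb (ENSMUSG00000036192; chromosome 19, 18907969 to 19088560, minus strand) was at 3.77, 2.66 and 2.44 FPKM in ultrasound libraries and at 4.37, 6.82 and 2.13 FPKM in controls. Controls 1 and 2 lay above every ultrasound library and control 3 lay below all of them, so the controls spanned 3.20-fold. Its fold change on the log2 scale was -0.55 (SE 0.39, 95% interval -1.47 to 0.38; edgeR adjusted p = 0.975). It was -0.87 (SE 0.24) without control 3 and -0.11 without control 2, with edgeR adjusted p of 0.833 and 0.979.

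Foxp2 was the scarcest member. FOXP2 is a forkhead factor of layer 6 corticothalamic neurons that striatal and thalamic neurons also make. Foxp2 (ENSMUSG00000029563; chromosome 6, 14901348 to 15441976, plus strand) was at 0.475, 1.08 and 1.08 FPKM in ultrasound libraries and at 0.729, 0.851 and 0.924 FPKM in controls. Ultrasound 1 was the lowest library, with 384 counts, and ultrasound libraries 2 and 3 lay above every control. The log2 fold change was 0.13 (SE 0.33, 95% interval -0.64 to 0.90; edgeR adjusted p = 0.995), 0.44 without ultrasound 1 and -0.10 without ultrasound 2. Summed striatal markers were highest in control 3 and ultrasound 3, and their part in the Foxp2 level was not tested.

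Per kilobase of transcript, the mean FPKM over all 6 libraries ran in the order Slc17a7 (206), Tbr1 (21.5), Neurod2 (16.2), Neurod6 (16.1), Cux2 (10.1), Emx1 (6.97), Cux1 (4.56), Rorb (3.70) and Foxp2 (0.857). Slc17a7 and Foxp2 stood clear of the others in every library. Among the neighbours in between, the ranges over libraries overlapped for each adjacent pair. Slc17a7 lay above 99.3% of the genes tested, Tbr1 above 87.3%, and Foxp2 above 11.2%.

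**Figure D2:**
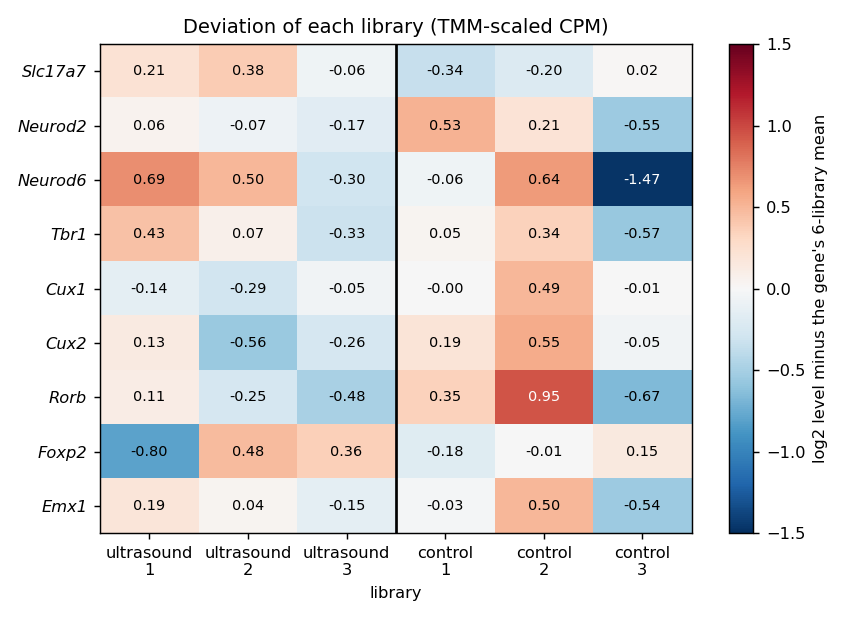
Log2 level of each gene (rows; TMM-scaled CPM plus 0.5) minus its own 6-library mean, in ultrasound libraries 1 to 3 (left of the line) and controls 1 to 3 (right). Control 3 holds the lowest value for 5 genes, down to -1.47 for Neurod6, and control 2 the highest for 4, up to 0.95 for Rorb.

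By the median of the 9 genes, the controls spanned a wider range than the ultrasound libraries. Each gene's log2 level was centred on its 6-library mean, and the median of the 9 members in a library was 0.13, 0.04 and -0.17 in ultrasound libraries 1 to 3 and 0.00, 0.49 and -0.54 in controls 1 to 3. Control 2 held the highest level of Cux1, Cux2, Rorb and Emx1. Control 3 held the lowest level of Neurod2, Neurod6, Tbr1, Rorb and Emx1, but not of Slc17a7, Cux1, Cux2 or Foxp2. The medians of the 3 ultrasound libraries lay between those of controls 2 and 3.

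**Figure D3:**
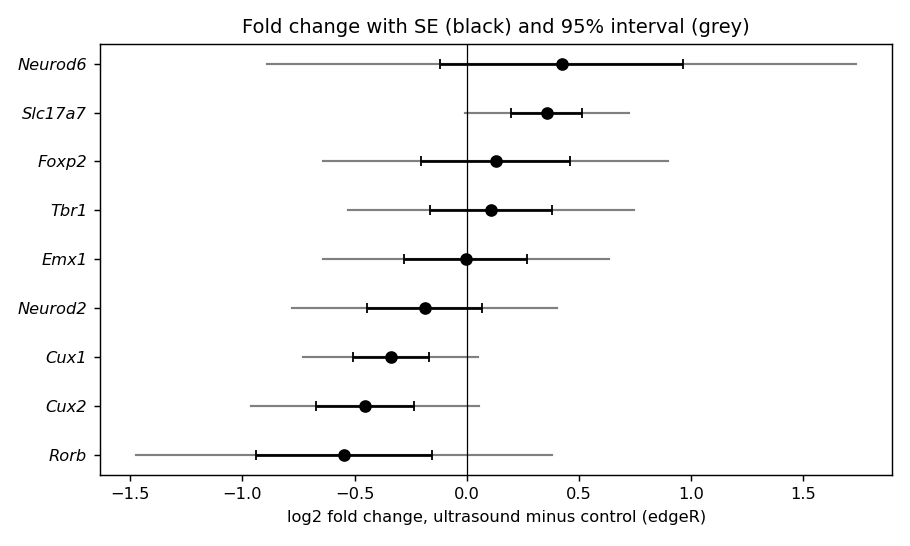
Log2 fold change, ultrasound minus control, of the 9 genes in edgeR with its SE (black) and 95% interval (grey). The estimates run from -0.55 for Rorb to 0.42 for Neurod6, and every interval crosses 0.

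Without control 3, 5 of 9 members had an unadjusted edgeR p under 0.05, where 5.15% of all genes tested did. These were Rorb, Neurod2, Cux2 and Cux1, with log2 fold changes of -0.87, -0.44, -0.59 and -0.43, and Slc17a7, with 0.46. None passed after adjustment over all genes, and the smallest adjusted p was 0.833. Without control 2 the count was 0 of 9, where 4.06% of all genes had such a p. Only Slc17a7 among members with a positive fold change, and Cux1, Cux2 and Rorb among those with a negative fold change, kept their direction in every alternative fit run.

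**Figure D4:**
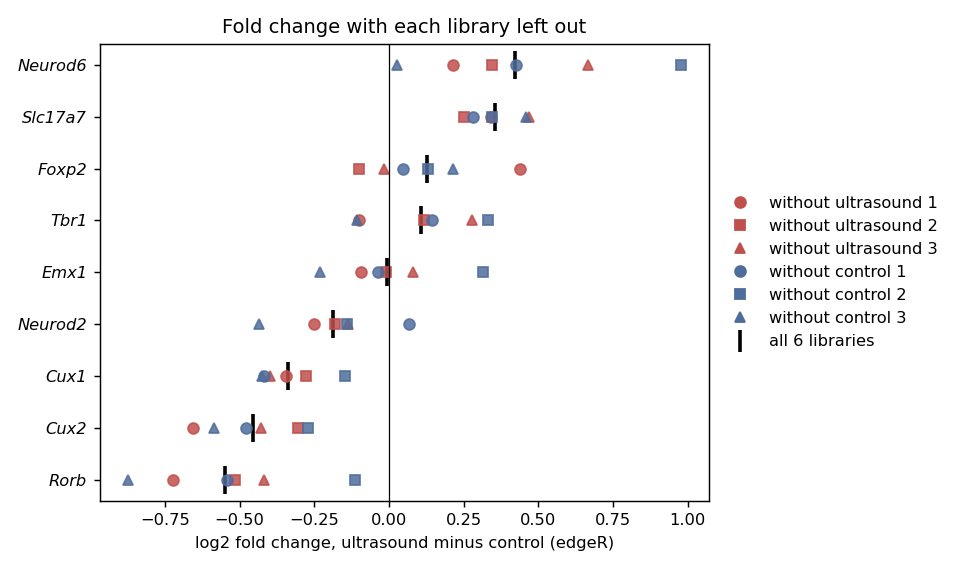
Log2 fold change, ultrasound minus control, of the 9 genes in edgeR with all 6 libraries (black tick) and with each library left out (red for an ultrasound library, blue for a control). Slc17a7 ranges from 0.25 to 0.47 and Rorb from -0.87 to -0.11, while the values of Neurod2, Tbr1, Emx1 and Foxp2 fall on both sides of 0.

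Ratios between members within a library do not depend on library scaling. Of the 36 ratios between pairs of members, 5 had groups that did not overlap (13.9% of the pairs), Slc17a7 over Cux2, Neurod6 over Rorb, Tbr1 over Cux2, Tbr1 over Rorb, and Cux2 over Emx1. Of single genes tested, 10.8% had FPKM groups that did not overlap, which is a different measure. No share was computed for ratios of other gene pairs, so the 13.9% has no matched background, and the pairs share genes. Tbr1 over Cux2, a deep layer gene over an upper layer gene, was 2.66, 3.35 and 2.05 in ultrasound libraries and 1.95, 1.86 and 1.499 in controls. Tbr1 over Rorb was 7.68, 7.70 and 6.85 in ultrasound libraries and 4.95, 4.01 and 6.59 in controls. Other ratios of this kind overlapped between groups, namely Tbr1 over Cux1 and the ratios of Cux1, Cux2 and Rorb to Foxp2. Each of the 5 had an exact two-sided permutation p of 0.1, the smallest that 3 libraries against 3 can give. These ratios were picked after their values were seen.

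Promoter sequences of members are given as a description, and their part in the members' levels was not tested. RefSeq promoter sequences on GRCm38.p6 were at hand for 8 of the 9 members, all but Foxp2, in 10 windows of 250 bases before a start site. Windows of Neurod2, Neurod6 and Tbr1, which were lowest in control 3, are printed with Slc17a7, which was not. Rorb and Emx1 were also lowest in control 3, and their windows are not printed. The bases just after the start site were found in an annotated transcript of the gene for every window except that of Slc17a7. Capitals mark matches on either strand to 6 short motifs, namely CAGATG (an E-box of the NeuroD type), CAGCTG (another E-box), GGTGTGA (T-box core), TGTTTAC (forkhead), TAATTA (homeodomain) and AGGTCA (nuclear receptor).
Neurod2, chr11:98329646-98329895, minus strand: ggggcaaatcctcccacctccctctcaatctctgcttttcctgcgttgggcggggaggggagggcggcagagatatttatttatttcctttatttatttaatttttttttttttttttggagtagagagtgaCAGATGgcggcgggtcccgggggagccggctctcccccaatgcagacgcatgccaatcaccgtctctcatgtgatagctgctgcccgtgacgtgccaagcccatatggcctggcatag
Neurod6, chr6:55681264-55681513, minus strand: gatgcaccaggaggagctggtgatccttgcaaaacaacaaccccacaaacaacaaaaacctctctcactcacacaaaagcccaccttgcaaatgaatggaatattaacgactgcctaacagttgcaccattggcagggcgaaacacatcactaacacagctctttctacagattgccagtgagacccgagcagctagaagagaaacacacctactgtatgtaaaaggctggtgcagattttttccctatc
Tbr1, chr2:61804203-61804452, plus strand: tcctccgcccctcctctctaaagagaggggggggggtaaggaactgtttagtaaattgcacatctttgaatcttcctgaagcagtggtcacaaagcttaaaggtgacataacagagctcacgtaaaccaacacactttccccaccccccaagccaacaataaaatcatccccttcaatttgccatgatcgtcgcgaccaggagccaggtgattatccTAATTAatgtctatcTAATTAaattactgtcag
Slc17a7, chr7:45163671-45163920, plus strand: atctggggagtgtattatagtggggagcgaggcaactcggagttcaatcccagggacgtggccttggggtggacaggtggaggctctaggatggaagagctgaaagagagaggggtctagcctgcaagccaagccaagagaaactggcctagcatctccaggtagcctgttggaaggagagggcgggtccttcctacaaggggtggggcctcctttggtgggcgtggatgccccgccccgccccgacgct

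The NeuroD-type E-box CAGATG was found in the window of Neurod2, starting 118 bases before the start site, and in 1 of the 2 windows of Cux2. That is 2 of the 10 windows, where 14.4% of all 32851 promoter windows of this length hold the motif. The homeodomain motif TAATTA stood at 2 places in the Tbr1 window, and in no other window of the members, where 4.84% of all windows hold it. TGTTTAC was found in the Cux1 window alone (3.17% of all windows). The other E-box, the T-box core and the nuclear receptor motif were found in none of the 10, where 13.0%, 3.33% and 14.0% of all windows hold them. GC content ran from 39.2% in 1 window of Rorb to 80.0% in 1 window of Cux2, and the Neurod2 and Neurod6 windows had 52.8% and 46.0%.

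Other regulators of the excitatory lineage gave a mixed picture. Of 16 differentiation factors, all tested, 7 had positive and 9 negative fold changes, 0 passed after adjustment, and the median log2 fold change was -0.03. Mef2c, a MADS-box factor of excitatory neurons, was at 7.405, 9.18 and 7.45 FPKM in ultrasound libraries and at 4.10, 5.00 and 2.00 FPKM in controls, with every ultrasound library above every control and a log2 fold change of 1.16 (SE 0.32, edgeR unadjusted p = 0.0082). Foxp1, a forkhead relative of Foxp2, was at 3.13, 1.79 and 1.64 FPKM in ultrasound libraries and at 5.44, 5.998 and 2.61 FPKM in controls. Ultrasound 1 lay above control 3, so its groups overlapped, and the log2 fold change was -1.06 (SE 0.36, edgeR unadjusted p = 0.021).

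All 10 effector genes of glutamatergic neurons had positive fold changes, with a median of 0.18 on the log2 scale, but 0 passed and 0 had an unadjusted edgeR p under 0.05. Beside this, 48.8% of all genes tested had a positive fold change. Nrn1, which encodes the activity-regulated surface protein neuritin, was at 88.9, 78.15 and 61.7 FPKM in ultrasound libraries and at 19.1, 91.1 and 32.7 FPKM in controls. Sv2b, a synaptic vesicle protein gene of excitatory terminals, was at 68.5, 57.2 and 50.5 FPKM in ultrasound libraries and at 58.4, 55.1 and 33.2 FPKM in controls. Control 3 was the lowest of the 6 libraries for Sv2b.

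Layer markers outside the members were compared with the layer factors. Of 12 layer 2/3 and 4 markers 9 had negative fold changes (median -0.09), led by Whrn, at 4.45, 3.21 and 4.395 FPKM in ultrasound libraries and 5.79, 7.77 and 4.44 FPKM in controls (groups overlapping; log2 fold change -0.54, SE 0.21), and Scnn1a, a layer 4 channel gene (-0.77, SE 0.50). All 8 layer 5 markers had positive fold changes (median 0.34), with Ldb2 and Etv1 at 1.29 (SE 0.41) and 0.60 (SE 0.23). Of all genes tested, 48.8% had a positive fold change. The groups of Ldb2 and Etv1 overlapped. Without control 3, Fezf2 turned to -0.20 and the other layer 5 markers stayed positive. Without control 2, all 8 stayed positive, but Crym fell to 0.0020 and Bcl11b to 0.18. Of the layer 2/3 and 4 markers, Rspo1 turned to 0.81 without control 2. Without control 3, Wfs1 and Otof turned positive, and Lamp5, Calb1 and Kcnh5 turned negative. Of 10 layer 6 markers 6 were positive (median 0.13), with Tle4, a corepressor gene, at 0.31 (SE 0.17) and Rprm at 0.29 (SE 0.17). Syt6 was at 15.1 FPKM in control 3 and at most 2.62 FPKM elsewhere. Without control 3, Syt6 turned from -1.25 to 0.99 and Nxph4 from -0.55 to 0.49. Ccn2 and Ntsr1 then stayed negative and the other layer 6 markers positive. Without control 2, Ccn2 and Ntsr1 turned positive and Sulf1 turned negative. None of these 30 genes passed the edgeR threshold.

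Genes reported as targets of TBR1 or FOXP2 were also examined. Of the 6 listed 5 were tested, 4 with positive fold changes and 0 past the threshold, and Srpx2 lay below the minimum level. Grin2b, the NMDA receptor subunit gene that TBR1 is known to activate, was at 15.7, 17.7 and 16.7 FPKM in ultrasound libraries and at 13.3, 9.94 and 9.53 FPKM in controls, with every ultrasound library above every control (log2 fold change 0.65, SE 0.17; edgeR unadjusted p = 0.0045). Auts2, a neurodevelopmental chromatin regulator gene, had a smaller value of 0.27 (SE 0.15). Tbr1 itself did not separate the groups, as given above.

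Markers of neurons as a whole and of other cells are given beside these values. The 8 pan-neuronal genes had 3 positive and 5 negative fold changes, a median of -0.01 and 0 past the threshold, and Rbfox3, the gene of the neuronal nuclear antigen NeuN, was at 45.6, 39.7 and 38.0 FPKM in ultrasound libraries and 39.2, 46.7 and 41.9 FPKM in controls. In control 3, where 5 members were lowest, the pan-neuronal genes went different ways. Snap25 (148 FPKM) and Map2 (10.6 FPKM) were at their lowest there, while Tubb3 (164 FPKM) was at its highest. Rbfox3, Syt1, Eno2, Syn1 and Stmn2 lay inside the range of the other libraries. The part of the neuronal share in the members' levels was not tested. Within the list the smallest p-values were those of Map2 (log2 fold change 0.73, SE 0.26), a dendritic microtubule protein gene, and Eno2 (-0.25, SE 0.12), which encodes neuronal enolase. Interneuron markers summed to 324, 269 and 332 FPKM in ultrasound libraries and to 283, 337 and 347 FPKM in controls. Gad1, an enzyme of GABA synthesis, reached 81.0 FPKM in control 3 and at most 45.9 FPKM elsewhere. Gad2, Slc32a1 and Adarb2 were also highest in control 3. Pvalb (16.2 FPKM), Sst (132 FPKM) and Vip (5.63 FPKM) were at their lowest in that library, and Lhx6 lay inside the range of the others.

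None of the tested genes in the remaining marker lists passed in edgeR. Summed thalamic markers lay between 3.27 and 9.34 FPKM in ultrasound libraries and between 4.19 and 10.5 FPKM in controls, with Gbx2 listed at 0 in ultrasound 1 and control 2. Summed hippocampal markers lay between 5.16 and 12.4 FPKM in ultrasound libraries and between 4.41 and 8.14 FPKM in controls. Astrocyte markers summed to 97.8 to 128 FPKM in ultrasound libraries and 92.5 to 113 FPKM in controls, oligodendrocyte markers to 175 to 320 FPKM and 203 to 259 FPKM in the same order, microglia markers to 36.7 to 42.3 FPKM and 30.7 to 42.0 FPKM, and endothelial markers to 15.2 to 21.9 FPKM and 16.2 to 28.1 FPKM. Choroid plexus markers summed to 8.62, 14.2 and 240 FPKM in ultrasound libraries 1 to 3 and to at most 5.44 FPKM in controls, and neutrophil markers to at most 5.95 FPKM in ultrasound libraries and to 16.4, 28.3 and 1.51 FPKM in controls 1 to 3. The part of these cells in the members' levels was not tested.

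Log2 fold changes in edgeR were positive for 8 of 9 tested striatal genes (list median 0.44), 1 of 2 thalamic (-0.12), 4 of 4 hippocampal (0.46), 3 of 8 interneuron (-0.09), 2 of 4 astrocyte (0.03), 3 of 4 oligodendrocyte (0.18), 3 of 4 microglia (0.21) and 1 of 3 endothelial genes (-0.05). The choroid plexus list had 3 of 3 positive, the neutrophil list 0 of 4 and the olfactory bulb list 0 of 5. Beside these counts, 48.8% of all genes tested were positive. Without control 2, the striatal genes Drd2, Adora2a, Rgs9 and Penk turned to -0.0048, -0.033, -0.097 and -0.31, and Tac1 stayed negative. Tac1 turned to 1.03 without control 3, where the other striatal genes stayed positive. Without control 3, the olfactory bulb genes Omp, Cdhr1, Eomes and Tbx21 turned to 1.34, 0.024, 0.98 and 6.24, while Doc2g stayed negative. Omp, Eomes and Tbx21 then rested on very few counts. Tbx21 had 0, 8 and 16 counts in ultrasound libraries 1 to 3 and 0 in controls 1 and 2. Eomes had 4, 0 and 13 counts beside 0 and 8, and Omp had at most 23. By unadjusted p, the leading genes and their log2 fold changes included Pde10a (1.13) for the striatum, Rora (0.02) and Prkcd (-0.26) for the thalamus, Prox1 (0.44) and Zbtb20 (0.50) for the hippocampus, and Gad1 (-0.38) and Sst (0.15) for interneurons. Among glia they were Aqp4 (0.55) and Slc1a3 (0.08) for astrocytes, Mog (0.28) for oligodendrocytes, and P2ry12 (0.80) and Cx3cr1 (-1.78) for microglia. Endothelial markers were led by Cldn5 (-0.37) and Pecam1 (0.24). Of these values, Gad1 turned to 0.04 and Rora to -0.46 without control 3, and Slc1a3 to -0.04 without control 2. Ttr and Kl led the choroid plexus list, with Ttr at 235 FPKM in ultrasound 3 and at most 12.7 FPKM elsewhere. Retnlg and Mmp9 led the neutrophil list, with Retnlg listed at 0 in all 3 ultrasound libraries and at 1.58, 1.44 and 0.299 FPKM in controls. Doc2g and Eomes led the olfactory bulb list, both far higher in control 3 (17.6 and 6.18 FPKM) than in any other library.

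Genes with profiles most like those of the members were found by the smallest root mean square difference between centred log2 levels over the 6 libraries, among 11740 candidates (11741 for Foxp2). For Slc17a7 these were Sf3b5, Sem1 and Wscd1 (differences of 0.05, 0.06 and 0.07), and for Emx1 they were Nr2f1, Efhd2 and Tmem218 (0.04, 0.05 and 0.05). Nr2f1 encodes a nuclear receptor that patterns cortical areas. For Neurod6 the nearest were Myl4, Vxn and Arhgap25, at larger differences of 0.21, 0.22 and 0.23. For Tbr1 they included Kcnh7 and Uap1 (0.08 and 0.09), for Neurod2 Drc3, Tnfrsf12a and Ptprk (0.08, 0.09 and 0.10), and for Rorb Kcnk4, Boc and Sytl2 (0.12, 0.13 and 0.14). For Cux1 they were Dnajb5, Csrnp2 and Cables2 (0.04, 0.07 and 0.07), for Cux2 Phf20l1, Igtp and Id1 (0.09, 0.11 and 0.12), and for Foxp2 Rnaset2b, Prmt2 and Zfp775 (0.09, 0.12 and 0.13). With so many candidates and 6 libraries, a near match is likely for any gene, so these lists are a description.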

How the data were processed

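Per gene and library, the authors deposited a raw count and an FPKM value, per the file headers; 12 further columns of this kind stayed out. Per the submitters' processing notes, the build was mm10 and the tools included StringTie 1.3.4d, HISAT2 2.0.4 and cutadapt 1.9, each with no stated role. The table's coordinates are printed as listed, but only 4.63% of 26077 shared symbols start within 10 kb of RefSeq GRCm38.p6, so the build behind them is uncertain. The labels do not say how counting used strand or multiply matching reads; genes that overlap a member in the table had at most 29 counts. Genes with a mean of at least 0.5 FPKM (15740) were fitted with edgeR 4.0.16 in R 4.3.3 (TMM scaling, quasi-likelihood test, robust, no covariate, Benjamini-Hochberg adjustment over all genes), ultrasound minus control; the test was checked on simulated counts. The 95% intervals were computed from the fit's SE and degrees of freedom. Alternatives used limma 3.58.1 and DESeq2 1.42.0. Exact permutation tests were two-sided. Counts of amplified reads are not independent molecules. Promoters are from RefSeq. The members and the 18 gene lists (124 symbols) were chosen with earlier results of these data known. Genes named are all members, the 2 with the smallest p in each list, the markers that set libraries apart, and the 3 most alike genes per member; others, such as Rbfox3 and Slc17a6, were named after values were seen. A few genes that this rule takes are not reported here.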

Additional observations from a re-analysis of the deposited data

How the results depend on the processing

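No member passed in any of the 15 alternative fits. The number of genes past the threshold, 1 with all libraries, was 2 with no filter, 29 in DESeq2, 0 in limma on log2(FPKM + 0.5) and 0 with a pseudocount of 0.1. It ranged from 1 to 4 with single libraries left out and was 8 without control 3 and ultrasound 2, a pair chosen after seeing the data. Slc17a7, Cux1, Cux2 and Rorb kept their direction in all 15. Emx1, at -0.01, turned to 0.0032 with RLE size factors, 0.0031 in DESeq2, 0.012 and 0.016 in limma with pseudocounts of 0.5 and 0.1, and 0.054 with the replicate block. Foxp2 turned to -0.0024 in limma with a pseudocount of 0.1. With single libraries left out, Emx1 ranged from -0.23 to 0.31, Foxp2 from -0.10 to 0.44, Neurod2 from -0.44 to 0.068, and Tbr1 from -0.11 to 0.33. Without control 3 and ultrasound 2, Neurod6 turned to -0.055, Tbr1 to -0.10 and Foxp2 to -0.020. The cause was not tested. Same-numbered libraries did not deviate together (correlations of -0.06, -0.03 and 0.08 for numbers 1 to 3), so the numbers are not taken to pair them; the block left 0 members and 1 gene past the threshold. In simulated counts of 15740 genes for this comparison, edgeR passed 0 of 67 genes changed 1.5-fold, 17 of 67 changed 2-fold, 51 of 66 changed 4-fold and 8 of 15540 unchanged genes.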
